A study of Caenorhabditis elegans with 4 samples.

Results

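The genes described here are those for small nucleolar RNAs (snoRNAs) in the nematode Caenorhabditis elegans, and the measurement is where a tagged protein, K09A11.1, was recovered along them. All 346 genes of biotype snoRNA in the Ensembl release 115 annotation of WBcel235 (the build also named ce11) were taken, of 46890 annotated genes on the nuclear chromosomes. Each gene was given a window of the gene itself and 200 bp on either side. By position, 130 genes lay outside protein-coding genes, 183 lay inside such a gene on its own strand and 33 lay inside one on the opposite strand. A total of 170 genes were intronic, 143 of them on the strand of the host and 27 on the opposite strand, and 40 and 6 more overlapped an annotated exon of the host. Of the 130 outside genes, 6 partly overlapped a protein-coding gene. The 346 genes formed 326 loci whose windows do not overlap.

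The study holds 1 group of 4 chromatin immunoprecipitation sequencing (ChIP-seq) libraries from whole hermaphrodite late embryos, with 2 technical libraries from each of 2 biological replicates. The worms, strain OP372, carry unc-119(tm4063) and the transgene insertion wgIs372, which makes K09A11.1 with a GFP-FLAG tag at its C terminus, and an antibody to GFP was used to precipitate sonicated chromatin. All cell types of the embryo are mixed in these values, an untagged group was not analysed here, and the promoter of the transgene is not given in the labels. The deposited lists hold a signal value per region, set by the submitters. Read counts are not part of them, so the depth of the libraries is unknown and a single value has no error of its own. The 4 lists used, on ce11, are those of replicate 1, replicate 2 and both pooled, with 30000 ranked regions each, and a thresholded list of 689 regions kept by the submitters for reproducibility, with a lowest signal of 30.4. A gene is called thresholded below if the summit of a thresholded region lay in its window, and listed only if its window held a pooled summit but no thresholded one. A signal value here is always that of the highest region in the window.

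As background, snoRNAs guide enzymes to particular bases of ribosomal and spliceosomal RNA. Box C/D snoRNAs guide methylation of the ribose and assemble with fibrillarin, whereas box H/ACA snoRNAs guide the conversion of uridine to pseudouridine and assemble with dyskerin. Box C/D snoRNAs are usually the shorter kind. Many animal snoRNAs are cut from introns of a host transcript made by RNA polymerase II, and others have a promoter of their own. In tRNA genes, RNA polymerase III is recruited through internal promoter elements, the A box and the B box, which the factor TFIIIC binds. In the yeast Saccharomyces cerevisiae the snoRNA gene SNR52 is transcribed in this way, from an A box and a B box upstream of the mature RNA.

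The upstream sequences are shown first, because a pair of short words recurred in them in thresholded genes of every host class. The A word searched was GGNNNANTG and the B word was GTTCNANNC. A pair was an A word that starts 20 to 70 bases before a B word on the strand of the gene, in a window of 160 bases made of 150 bases upstream and the first 10 bases of the gene, so the words of a pair do not overlap. The words were written after the sequences had been seen, from the usual form of tRNA promoter elements. The 8 lines that follow give 100 bases upstream and the first 20 bases of the gene, 5′ to 3′ on the strand of the gene, from the WBcel235 (ce11) reference, with the A word and the B word in capitals. They are examples of thresholded genes with a pair from each host class, with pooled signals from 68.1 to 171.2, and not the strongest of the outside class: first the outside genes F12F6.11, C41C4.11 and Y75B12B.12, then the same-strand genes Y43F8C.22, C05D2.15 and Y38F2AR.14, then the opposite-strand genes T03F7.8 and C04G6.12.
F12F6.11, chrIV:11549845-11549964, minus strand: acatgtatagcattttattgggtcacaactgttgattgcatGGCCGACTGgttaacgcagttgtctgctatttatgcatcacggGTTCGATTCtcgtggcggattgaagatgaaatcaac
C41C4.11, chrII:8107251-8107370, minus strand: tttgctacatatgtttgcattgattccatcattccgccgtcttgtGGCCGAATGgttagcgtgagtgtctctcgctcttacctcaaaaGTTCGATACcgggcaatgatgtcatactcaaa
Y75B12B.12, chrV:15191074-15191193, minus strand: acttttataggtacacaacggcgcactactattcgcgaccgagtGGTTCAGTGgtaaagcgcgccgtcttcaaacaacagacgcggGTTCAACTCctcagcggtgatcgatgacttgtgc
Y43F8C.22, chrV:19643168-19643287, minus strand: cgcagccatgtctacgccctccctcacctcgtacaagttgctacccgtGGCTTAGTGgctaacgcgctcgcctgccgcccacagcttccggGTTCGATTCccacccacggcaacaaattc
C05D2.15, chrIII:5602160-5602279, minus strand: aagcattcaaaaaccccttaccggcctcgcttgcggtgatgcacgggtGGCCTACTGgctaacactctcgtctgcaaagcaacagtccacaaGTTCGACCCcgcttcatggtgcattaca
Y38F2AR.14, chrIV:2408616-2408735, minus strand: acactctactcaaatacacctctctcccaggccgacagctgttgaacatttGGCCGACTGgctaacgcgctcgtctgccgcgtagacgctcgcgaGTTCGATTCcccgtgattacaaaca
T03F7.8, chrV:11314158-11314277, plus strand: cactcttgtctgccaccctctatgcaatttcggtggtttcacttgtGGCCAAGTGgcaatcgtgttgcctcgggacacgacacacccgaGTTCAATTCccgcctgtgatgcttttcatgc
C04G6.12, chrII:5105212-5105331, minus strand: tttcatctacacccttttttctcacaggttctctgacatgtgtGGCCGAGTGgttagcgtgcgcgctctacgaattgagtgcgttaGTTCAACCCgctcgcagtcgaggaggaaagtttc

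The next 6 lines show where the pair and the peak came apart, in windows of the same kind. C51F7.3, W03C9.9 and ZK994.7 are thresholded genes of high signal with no pair, and in them only B words are in capitals. Most of the bases shown before C51F7.3 belong to the neighbouring snoRNA gene C51F7.4, and both of its B words lie inside that gene. F30H5.4, H04D03.5 and Y59E1B.14 are the genes that held a pair and were not thresholded, with the pair in capitals.
C51F7.3, chrV:12303608-12303727, plus strand: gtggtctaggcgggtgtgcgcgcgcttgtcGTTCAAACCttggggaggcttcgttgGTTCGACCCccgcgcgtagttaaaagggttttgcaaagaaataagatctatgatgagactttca
W03C9.9, chrII:11960798-11960917, plus strand: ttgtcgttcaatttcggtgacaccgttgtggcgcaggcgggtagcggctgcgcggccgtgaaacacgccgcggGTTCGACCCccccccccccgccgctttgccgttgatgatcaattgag
ZK994.7, chrV:8500479-8500598, plus strand: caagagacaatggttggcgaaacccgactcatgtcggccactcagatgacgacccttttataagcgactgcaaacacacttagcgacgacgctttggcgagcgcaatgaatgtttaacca
F30H5.4, chrIII:502704-502823, plus strand: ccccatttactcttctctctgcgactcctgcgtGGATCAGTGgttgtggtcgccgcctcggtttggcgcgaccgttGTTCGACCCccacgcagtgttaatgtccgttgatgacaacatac
H04D03.5, chrIII:10432243-10432362, plus strand: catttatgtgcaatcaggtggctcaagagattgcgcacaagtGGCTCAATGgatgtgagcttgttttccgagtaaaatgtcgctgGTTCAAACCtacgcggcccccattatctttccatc
Y59E1B.14, chrX:1891409-1891528, plus strand: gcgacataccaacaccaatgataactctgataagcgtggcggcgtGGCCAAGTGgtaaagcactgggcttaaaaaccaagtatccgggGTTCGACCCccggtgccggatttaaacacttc
C51F7.3 held 2 B words and W03C9.9 held 1, both with no A word, and ZK994.7 held neither word. This holds for the exact letters of the A word only. Just 49.0% of tRNA genes held that word, so its absence does not show that an A box is absent.

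Thresholded regions lay at 45 of the 346 snoRNA genes (13.0%, exact 95% binomial interval 9.65 to 17.0), against 1.82% of all annotated nuclear genes treated with the same margin and 0.349% of genome tiles of 530 bp, the median window length. The 45 genes held 44 distinct regions, because C51F7.3 and C51F7.4 share one. Intervals here and below are of the Clopper-Pearson kind, treat genes as independent and cover counting error only. In the full ranked lists the snoRNA genes stood closer to other genes. The pooled list had a summit at 141 of them (40.8%), against 33.0% of all genes. The replicate 1 list had one at 136 (39.3%), against 33.2% of all genes, and the replicate 2 list at 121 (35.0%), against 34.3%. The gap to all genes was therefore widest in the thresholded list. In the longer lists, the intervals of the pooled share (35.5 to 46.1) and the replicate 1 share (34.1 to 44.7) lay above the share of all genes. The interval of the replicate 2 share (29.9 to 40.3) held it. The windows of all genes span whole genes and so differ in length from those of snoRNA genes. Tiles of matched length were counted for the thresholded list only. Among other small RNA genes, 21.7% of 612 tRNA genes (18.5 to 25.2), 5.43% of 129 snRNA genes (2.21 to 10.9) and 1.53% of 261 microRNA genes (0.419 to 3.88) were thresholded.

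Genes outside and inside protein-coding genes were both represented. Of the genes outside, 21 of 130 were thresholded (16.2%, 10.3 to 23.6), against 18 of 183 same-strand genes (9.84%, 5.93 to 15.1). The difference of 6.32 percentage points did not pass the test (Fisher's exact test, two-sided, p = 0.118). It was 1.93 points without replicate 1 (Fisher's exact test, p = 0.591). It was 3.88 points without the thresholded genes whose summit is in a protein-coding promoter window (Fisher's exact test, p = 0.289). That rule left out thresholded genes only, so both shares fell by construction and its p-value decides nothing. With genes of overlapping windows counted once the shares were 16.3% of outside loci and 10.3% of same-strand loci (Fisher's exact test, p = 0.161). This test treats genes as the units, so it describes this list and not a difference between animals. Opposite-strand genes, whose RNA is not part of the host transcript, were thresholded in 6 of 33 cases (18.2%, 6.98 to 35.5). Strictly intronic genes held a thresholded region in 16 of 143 same-strand cases (11.2%) and 6 of 27 opposite-strand cases (22.2%), and genes that overlap a host exon in 2 of 40 same-strand cases (5.0%) and 0 of 6 opposite-strand cases. All of these intervals overlap.

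Short snoRNA genes carried thresholded regions more often than long ones in this list. Annotated lengths ran from 54 to 344 bp with a median of 130 bp, and the thresholded genes had a median of 76 bp. Of the 93 genes under 100 bp, 26 were thresholded (28.0%, 19.1 to 38.2), against 19 of the 253 genes of 100 bp or more (7.51%, 4.58 to 11.5). The limit of 100 bp was chosen after the values had been seen, so no test was run. Outside genes under 100 bp had the highest share, 14 of 32 (43.8%, 26.4 to 62.3), against 7 of 98 longer outside genes (7.14%, 2.92 to 14.2). The opposite-strand shares were 5 of 13 under 100 bp (38.5%, 13.9 to 68.4) and 1 of 20 at 100 bp or more (5.0%, 0.127 to 24.9). Same-strand genes differed less by length, with 7 of 48 short genes (14.6%, 6.07 to 27.8) and 11 of 135 longer ones (8.15%, 4.14 to 14.1), and these intervals overlap widely.

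**Figure D1:**
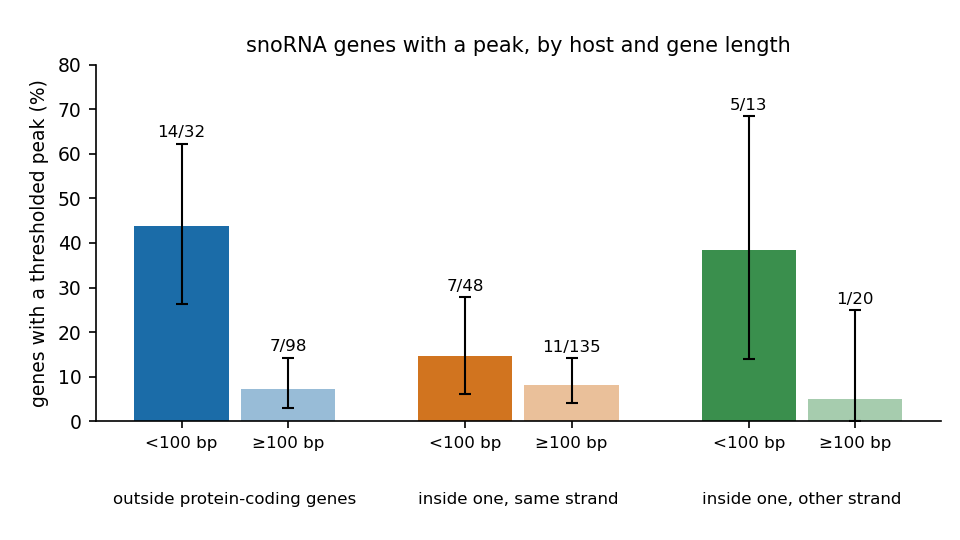
Share of snoRNA genes with a thresholded region (y axis, percent) by host class and gene length (x axis); bars are shares, error bars exact 95% binomial intervals, and the numbers above are thresholded genes over all genes. Short outside genes stood at 43.8% and long ones at 7.14%, while the short and long same-strand genes stood at 14.6% and 8.15%.

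Of the 18 thresholded same-strand genes, the strongest lay in hosts of several kinds. C51F7.4 (chromosome V, 12303599 to 12303693) and C51F7.3 (12303708 to 12303783), inside the FERM-domain gene frm-7, shared a region with a signal of 179.8 in the pooled list, 116.1 in replicate 1 and 68.66 in replicate 2. ZK994.7 (V, 8500579 to 8500645), in an intron of the peroxidasin gene pxn-1, had 134.4, with 101.3 in replicate 1 and 31.55 in replicate 2. Y43F8C.22 (V, 19643050 to 19643187), in an intron of Y43F8C.7, had 107.3, with 77.25 and 27.57 in replicates 1 and 2. These 3 regions ranked 13, 30 and 45 by signal in the thresholded list. C05D2.15 (III, 5602054 to 5602179), in the MADF-domain gene madf-11, had 87.34, with 63.10 and 23.87 in replicates 1 and 2. Y38F2AR.14 (IV, 2408508 to 2408635), in Y38F2AR.12, had 83.64, with 53.58 and 25.42. M106.6 (II, 10840317 to 10840391), in the condensin subunit gene mix-1, had 83.30, with 65.86 and 20.35. Each of these genes was higher in the replicate 1 list. Y71F9AM.7 (I, 2935785 to 2935920), in the Golgi complex gene cogc-3, had 75.95, with 58.08 and 14.95. D1046.6 (IV, 8927265 to 8927393), in cfim-2, which encodes a subunit of the pre-mRNA cleavage factor Im, had 74.45, with 39.69 and 32.57. The summits of Y71F9AM.7 and D1046.6 also lay in the promoter window of their own host, so the host promoter and the snoRNA gene cannot be told apart there.

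All 6 thresholded opposite-strand genes were intronic. T03F7.8 (V, 11314258 to 11314332), in the cuticlin-like gene cutl-18, had a signal of 171.2 in the pooled list, 124.7 in replicate 1 and 43.89 in replicate 2. C04G6.12 (II, 5105157 to 5105231), in the MAP kinase gene mpk-2, had 92.64, with 67.62 and 32.65 in replicates 1 and 2. ZK484.9 (I, 6082738 to 6082805), in the ABC transporter gene haf-9, had 86.64, with 72.66 and 17.58. None of the 6 had its summit in a promoter window of a protein-coding gene. B0334.12 (II, 11484683 to 11484752), in the potassium channel gene twk-5, had 82.20, with 55.12 and 27.18. C27H5.9 (II, 7184010 to 7184078), in pdl-1, had 62.36, with 40.44 and 23.64. T04A8.17 (III, 4689634 to 4689771), in ppat-1, had 51.08, with 31.44 and 15.98, and at 138 bp it was the only one of the 6 of 100 bp or more.

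Of the 21 thresholded genes outside protein-coding genes, the strongest were short. A partial overlap with a protein-coding gene was present in 3 of the 21, T02E1.9 and T27A3.9 among them. W03C9.9 (II, 11960898 to 11960959), a gene of 62 bp, had a signal of 146.5 in the pooled list, 97.15 in replicate 1 and 49.71 in replicate 2. ZK265.10 (I, 8259437 to 8259498) had 127.2, with 92.85 and 36.93 in replicates 1 and 2, and T19B4.8 (I, 5707046 to 5707119) had 126.7, with 86.44 and 38.54. T02E1.9 (I, 8224474 to 8224544) had 118.8, with 78.21 and 40.64. The summits of ZK265.10 and T02E1.9 also lay in the promoter windows of sre-23, a chemoreceptor gene, and T02E1.2. T06C12.16 (V, 15873855 to 15873926) had 106.6, with 76.42 and 31.32, and F32E10.10 (IV, 7574122 to 7574191) had 105.6, with 68.90 and 33.03. T27A3.9 (I, 6105679 to 6105754) had 97.17, with 64.29 and 33.15, and H09I01.2 (IV, 8253094 to 8253165) had 92.92, with 66.50 and 28.71. All 8 were between 62 and 76 bp long. The weakest thresholded gene of any class was also outside, Y53F4B.47 on chromosome II, with a signal of 31.39.

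The host classes overlapped in signal. The thresholded genes outside had a median pooled signal of 68.14 (31.39 to 146.5, n = 21), the same-strand genes 71.42 (32.83 to 179.8, n = 18) and the opposite-strand genes 84.42 (51.08 to 171.2, n = 6), with widely overlapping ranges. Over all 45 genes the median was 70.61, against 45.21 over the 663 nuclear thresholded regions and 51.83 over the 133 thresholded tRNA genes. Their ranks in the thresholded list ran from 13 to 664 with a median of 140. The 96 listed-only genes had pooled signals from 7.03 to 29.01 with a median of 11.14. Among them C14C10.8, inside the gene ril-2, had 29.01 and was listed in replicate 2 at 6.88 and not in replicate 1. H04D03.5, on the opposite strand of smrd-1, had 28.94, with 16.55 and 11.88 in replicates 1 and 2. R12E2.17, in the proteasome subunit gene rpn-8, had 27.90 and was listed in replicate 1 at 24.28 and not in replicate 2.

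**Figure D2:**
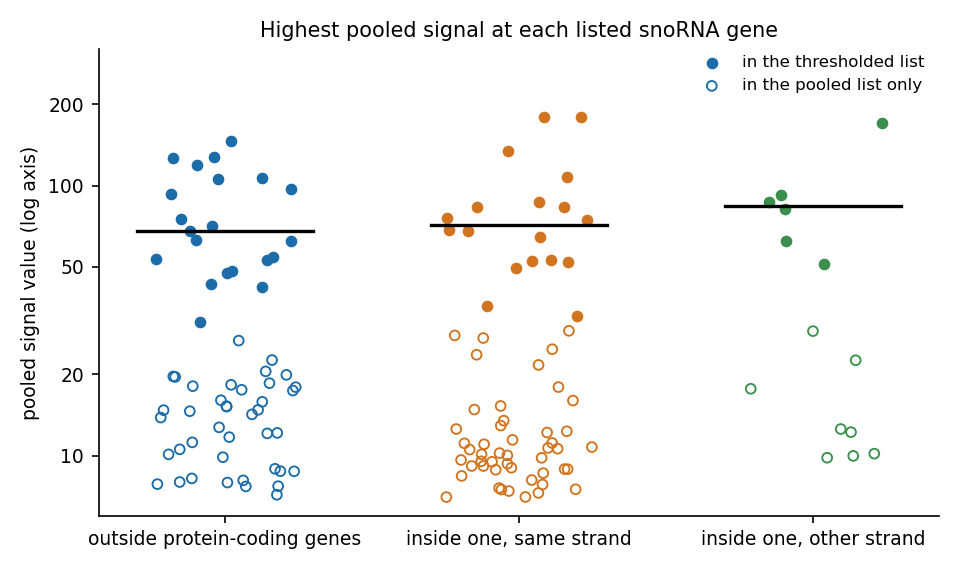
Highest pooled signal (y axis, log scale, the submitters' units) of each listed snoRNA gene by host class (x axis); filled points are the 45 thresholded genes, open points the 96 listed-only genes, and lines the medians of the filled points, at 68.14 for outside, 71.42 for same-strand and 84.42 for opposite-strand genes. The filled points of the host classes overlap.

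All 45 thresholded genes had a region in both replicate lists, and all 45 had a higher signal in replicate 1. The median was 46.65 in replicate 1 (17.12 to 124.7) and 23.64 in replicate 2 (8.638 to 68.66). The ratio of replicate 1 to replicate 2 had a median of 2.086 (1.077 to 5.675), against 1.902 over the 603 nuclear thresholded regions listed in both. Those regions were matched between lists by a distance of 100 bp, whereas the gene values are the highest in each window, so the medians are not strictly alike. The lists were not scaled to each other and their depths are unknown, so the ratio does not compare the embryos. Among the first 689 regions of each replicate list there were 44 of the 45 thresholded genes in replicate 1, 39 in replicate 2 and 38 in both. Thresholded regions were kept by the submitters for reproducibility. The same counts were not made for all of them, so these are not called particular to snoRNA genes. Across the 44 regions, the signals of the replicate lists had a Pearson's r of 0.71 on the log2 scale and a Spearman's rho of 0.7, given as a description because both lists share their control and the regions were kept for appearing in both.

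**Figure D3:**
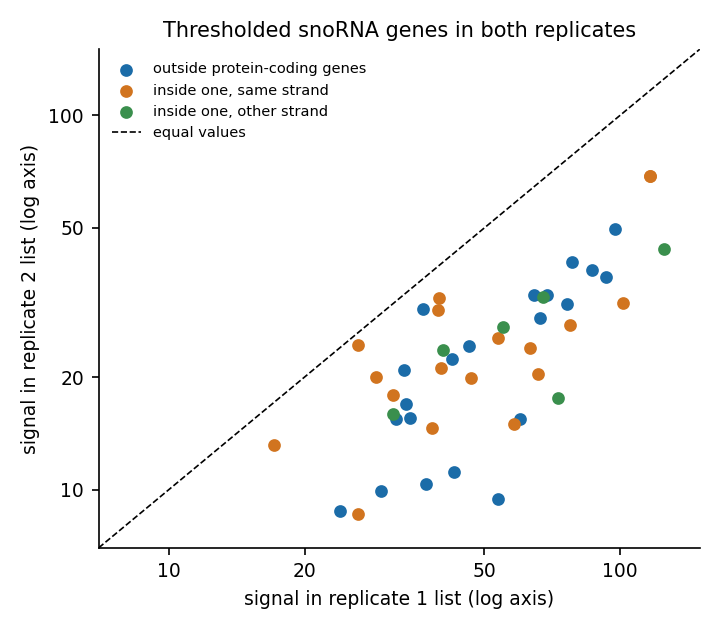
Signal of each thresholded snoRNA gene in the replicate 1 list (x axis, log scale) and the replicate 2 list (y axis, log scale), coloured by host class; the dashed line marks equal values. All 45 points lie below the line, with a median ratio of replicate 1 to replicate 2 of 2.086.

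The summits lay just upstream of the snoRNA genes rather than over them. Relative to the annotated 5′ end, the summits of the 45 thresholded genes had a median position of -46 bp, with quartiles at -59 and -27 bp. Their range was from -153 to 99 bp. The summit shared by C51F7.3 and C51F7.4 was counted for each, at -88 bp and, inside the gene, at 21 bp. By gene, the summit was upstream in 39 cases, 37 of them within 100 bp, inside the gene in 5 and downstream in 1. The upstream count was 19 of 21 for outside genes, 15 of 18 for same-strand genes and 5 of 6 for opposite-strand genes, with medians of -46, -35 and -56 bp. The 1 downstream summit was that of B0334.12, at 99 bp. Listed-only summits were spread more widely, with a median of 44 bp, a range from -198 to 440 bp, and 41 summits upstream, 25 inside and 30 downstream. Thresholded tRNA genes had a median of 24 bp, with 72 of 133 summits inside the gene. The window rule fixes only that a summit lies within 200 bp of the gene, and the commonest region width was 340 bp, so a region reaches well beyond its summit.

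**Figure D4:**
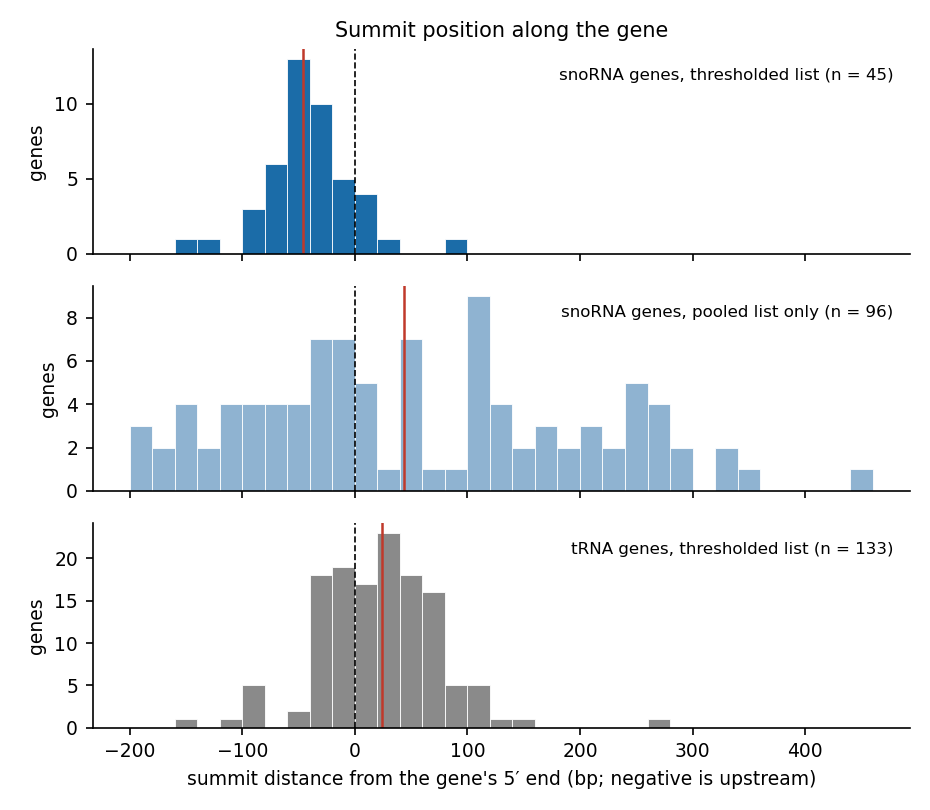
Number of genes (y axis) by distance of the summit from the annotated 5′ end (x axis, bp in bins of 20, negative upstream; dashed line the 5′ end, red line the median), for thresholded snoRNA genes (top), listed-only snoRNA genes (middle) and thresholded tRNA genes (bottom). The top panel is gathered around its median of -46 bp, the middle one spreads over the window, and the bottom one has its median at 24 bp inside the gene.

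The A and B words were more frequent upstream of thresholded genes than upstream of the rest, where the pair was rare. A pair was found at 16 of the 45 thresholded genes (35.6%, 21.9 to 51.2), against 3 of the 301 other snoRNA genes (0.997%, 0.206 to 2.88). The same search found it in 0.0701% of windows upstream of 19973 protein-coding genes, and in 0.135% of genome tiles of 160 bases on the forward strand and 0.128% on the reverse strand. The opposite strand of the snoRNA windows was searched only with a narrower A word, GGCNNANTG. That narrower pair was found at 0 of 346 there, against 14 of 346 on the strand of the gene. Read from the other side, 16 of the 19 snoRNA genes with a pair were thresholded (84.2%, 60.4 to 96.6), against 29 of 327 without (8.87%, 6.02 to 12.5). Because the words were written from sequences of these genes, these counts are a description and were not tested. As a check of the words, 95.9% of tRNA genes held the B word, 49.0% the A word and 43.3% the pair within 160 bases from their own 5′ end, where these elements lie in tRNA genes, so the A word as written misses many tRNA genes.

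Single words showed the same order, in counts that include the genes with a pair and were likewise not tested. The B word alone stood upstream of 24 of 45 thresholded genes (53.3%, 37.9 to 68.3), against 16 of 301 others (5.32%, 3.07 to 8.49) and 2.33% of protein-coding genes. The A word stood upstream of 26 thresholded genes (57.8%), against 37 others (12.3%) and 6.57% of protein-coding genes, and a genome tile held it in 10.8% of cases, so it is common by its letters alone. At least 1 of the words was present at 34 thresholded genes (75.6%), against 49 of the 301 others (16.3%). Of the thresholded genes 11 held neither, ZK994.7, H09I01.2 and D1046.6 among them. With the narrower A word GGCNNANTG the pair was found at 12 thresholded genes (26.7%) and 2 others (0.664%). By host class, the pair was present at 6 of 21 thresholded outside genes (28.6%), 7 of 18 same-strand genes (38.9%) and 3 of 6 opposite-strand genes. The short thresholded genes held it in 9 of 26 cases (34.6%) and those of 100 bp or more in 7 of 19 (36.8%), which are close to each other.

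The words kept nearly the same place in each gene. In the 16 thresholded genes with a pair, the A word started at a median of -55.5 bp from the 5′ end (-79 to -49) and the B word at -13 bp (-25 to -5). The distance between the starts was 42 to 60 bases with a median of 43. T02E1.9 and T08B2.13, a gene in an intron of the phenylalanyl-tRNA synthetase gene fars-1, had their A words farthest upstream, at -79 and -76 bp. The summits of the 16 had a median of -35 bp (-77 to 19), a median of 17 bp past the start of the A word. Pooled signal was 83.47 at the median with a pair (35.88 to 171.2) and 63.06 without (31.39 to 179.8), with overlapping ranges. In the 100 bp upstream, 0 of the 45 thresholded genes had an annotated same-strand tRNA gene while 2 had a same-strand pseudogene, 4 a same-strand gene of biotype ncRNA and 1 another snoRNA gene. Such neighbours were not counted for the other snoRNA genes. The pair itself overlapped an annotated same-strand pseudogene in 1 gene and an ncRNA gene in 2.

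**Figure D5:**
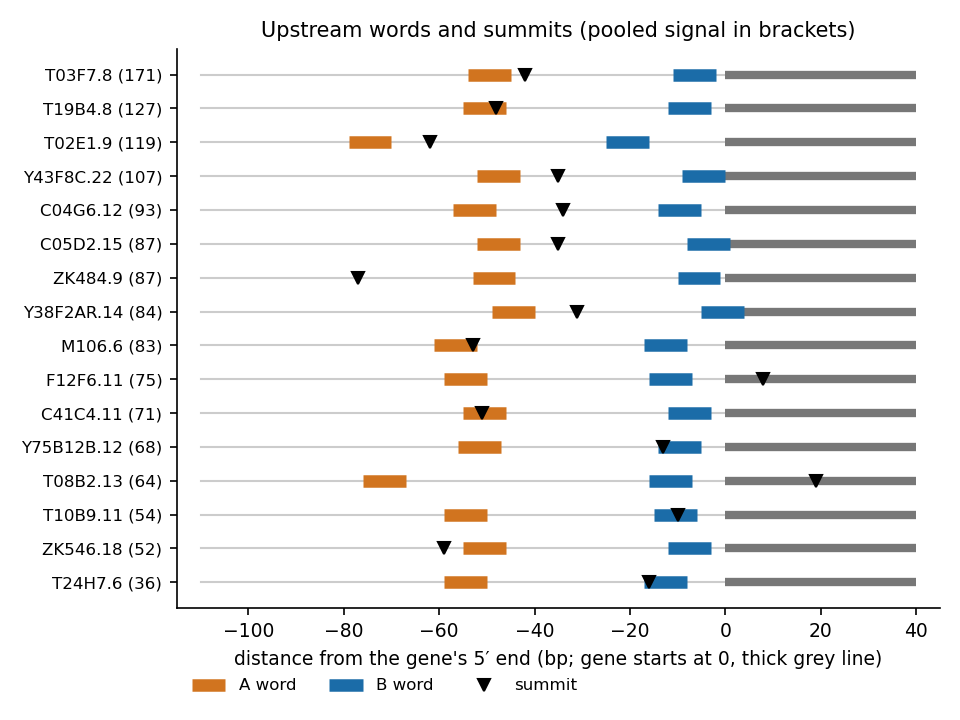
Positions of the A word, the B word and the summit relative to the annotated 5′ end (x axis, bp; the grey bar marks the start of the gene) for the 16 thresholded snoRNA genes with a pair, ordered by pooled signal, which is given in brackets beside each name. The A words start between -79 and -49 bp and the B words between -25 and -5 bp, while the summits spread from -77 to 19 bp.

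The 3 genes with a pair and no thresholded region differed from each other. H04D03.5, on chromosome III, stood just below the lowest thresholded signal, at 28.94 and rank 745 of the pooled list, with its summit at 1 bp. F30H5.4, on chromosome III, and Y59E1B.14, on the X, had no listed region in any of the ranked lists. A pair was therefore found without a listed region at 2 of 19 genes, and a thresholded region without a pair at 29 of 45.

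Other letters of the genes and their upstream bases were described by fixed words. These words were chosen with earlier results of these data known, so their shares are a description and were not tested. In the 200 bp upstream, on both strands, GTTCGA, which overlaps the B word, was present at 37.8% of thresholded genes, 5.21% of listed-only genes, 9.76% of genes with no pooled region and 6.15% of protein-coding genes. CGCGCA was present at 17.8%, 4.17%, 4.88% and 4.24% of these, and GCGCAC at 24.4%, 8.33%, 5.37% and 4.08%. TATAAA, the core of a TATA box, was present at 9 of the 45 thresholded genes, 16.7% of listed-only genes, 17.1% of genes with no pooled region and 30.4% of protein-coding genes. Of the thresholded genes, 3 held the C and D box letters TGATGA in the first 20 bases and CTGA in the last 20, among 14 such genes in all (21.4%, 4.66 to 50.8). The H/ACA letters ACA stood in the last 6 bases of 15 of the 45 thresholded genes (33.3%) and 80 of all 346 (23.1%). These 15 had a median length of 131 bp and a median pooled signal of 54.65. Exact letters at annotated ends find few C/D genes, so these counts do not assign the other genes to a class.

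No snoRNA gene on the X chromosome was thresholded. The count was 0 of 33, which allows a share of up to 9.09% by 3 counts and up to 10.6% by the exact interval, against 45 of 313 on the autosomes (14.4%, 10.7 to 18.8). The intervals do not overlap, but the split was noticed in these data, so it is given without a test. By autosome the shares were 10 of 74 genes on I (13.5%), 14 of 71 on II (19.7%), 3 of 54 on III (5.56%), 9 of 59 on IV (15.3%) and 9 of 55 on V (16.4%). The X chromosome was not low for tRNA genes, of which 64 of 276 on the X (23.2%, 18.3 to 28.6) and 69 of 336 on autosomes (20.5%, 16.3 to 25.3) were thresholded. On the X, 12 snoRNA genes were in the pooled list, the highest being Y102A11A.16 with 18.6, K09E9.5 with 16.0 and W01H2.11 with 14.8. Of the 33 genes, 7 were under 100 bp and 1 held a pair.

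Some thresholded summits could also be counted for other genes. A promoter window of a protein-coding gene ran from 1000 bp upstream to 200 bp downstream of a 5′ end. Such a window held the summit of 14 of the 45 thresholded genes: 8 outside genes, 6 same-strand genes and 0 opposite-strand genes. The share of all thresholded regions in such windows was not counted, so this count is not called high or low. In 4 same-strand cases the promoter was that of the host. Without these 14 genes the share of thresholded snoRNA genes was 9.34%, a fall built into leaving out thresholded genes only. No summit was within 200 bp of an annotated tRNA, snRNA or microRNA gene. Repeated words of 32 bases made up at most 7.6% of the window of any thresholded gene, whereas 30 of the 346 windows were over 20% repeated. At the edge of the 200 bp margin, ZK20.9 was just inside, with a summit 153 bp away and a signal of 42.03. K02F3.15, C26C6.13, F54E7.10 and W06H8.17 were just outside, at 225 to 246 bp, with signals of 56.03, 45.68, 47.8 and 48.64.

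Genes of the proteins that act with snoRNAs were described from a list of 13, all of which had a pooled summit in their promoter window, as set above, against 42.2% of all protein-coding genes. Of these, 2 had a thresholded region there, against 2.49% of all protein-coding genes. The fibrillarin gene fib-1, the methyltransferase of C/D particles, had a signal of 42.4, with 24.5 in replicate 1 and 13.9 in replicate 2, and its summit was at -71 bp. The nucleolar protein gene nol-10 had 33.3, with 14.9 and 17.9, and its summit was at -268 bp. The core C/D protein genes nol-58 and nol-56 had 28.2 and 9.95, and snu-13 had 19.1. The core H/ACA protein genes Y48A6B.3, nola-3, garr-1 and dkc-1, which encodes dyskerin, had 26.1, 16.2, 14.2 and 12.2, all below the threshold. The helicase genes ruvb-1 and ruvb-2, which act in snoRNA particle assembly, had 17.3 and 18.5, and dao-5 and xrn-2 had 14.6 and 14.2.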

How the data were processed

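The authors deposited peak lists on ce11 and ce10. Per the deposited notes, each replicate's technical libraries were merged, and each list was called against 1 shared control. The sources used here name no aligner, caller or threshold. Each region's signal and −log10 q-value are the authors' own, as deposited. The −log10 q-value lies between 2.39 and 3.00 in the thresholded list and was used for no result. The ce10 lists were not used here.

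Regions were placed by summit on the Ensembl release 115 annotation of WBcel235, and sequences were read from the RefSeq WBcel235 genome, with Python 3.11.15, numpy 2.4.6, pandas 2.3.3 and scipy 1.17.1; figures used matplotlib 3.10.9. Hosts are protein-coding genes that contain the snoRNA gene; 1 gene inside genes on both strands was counted as same-strand. Replicate values are the highest region of the window in each list, unscaled. The members and the word lists were chosen with earlier results of these data known. Named genes are the 8 of highest pooled signal in each host class (all where there were fewer), the 3 highest without a thresholded region and the snoRNA proteins with one; genes that share a region count as 1, and other genes were named after their values were seen. The only test is Fisher's exact test between host classes. Placement and word searches were tested on simulated data. The simulated sequences held only A and T around the planted words, so that test could not show false word hits. Alternatives changed the margin, list, overlap rule, host rule and words.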

Additional observations from a re-analysis of the deposited data

How the results depend on the processing

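Of 72 recomputed values, 66 kept their direction and, where tested, their side of the threshold, and where untested moved by less than their spread or interval; all 79 recomputed signals of the named genes were unchanged, and in 21 further cases a named gene had no region left. With no margin, so that summits upstream of a gene are left out by construction, 1.45% of snoRNA genes (5) were thresholded, the difference between outside and same-strand genes was -0.101 points (1.54% against 1.64%, Fisher's exact test p = 1.0), the median signal of same-strand genes was 134, the median summit position was 12 bp, and opposite-strand genes gave no value. Another alternative, chosen after seeing the data, left out the thresholded genes whose summit is in a protein-coding promoter window. The share was then 9.34% (31 genes) and the host difference 3.88 points (Fisher's exact test p = 0.289). Only thresholded genes were left out, so the share fell by construction and the p-value decides nothing. The share of thresholded genes with the B word alone was 53.3%, against 35.6% with the pair. Without replicate 1 or replicate 2, by the first 689 regions of the other, the share was 11.8 to 13.6%, the host difference 1.93 to 6.54 points (Fisher's exact test p = 0.591 without replicate 1 and 0.125 without replicate 2), the median position -50 to -45 bp and the share with a pair 34.0 to 34.1%. Leaving out replicate 1 or the thresholded promoter-window genes thus moved the host difference by over 1.5 times, the latter by a rule that uses the outcome. Over all alternatives the Fisher p of the host difference ran from 0.0776 to 1.0, so none passed. No paired analysis was possible because the study has 1 group. Depth is unknown, so the precision of single signals could not be given, and genes and regions are not biological replicates.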
